A study of Mus musculus with 24 samples.

Results

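The genes described here are 9 members of the peroxisomal β-oxidation pathway and its companions, named by symbol: *Ehhadh*, *Hsd17b4*, *Acaa1a*, *Acaa1b*, *Ech1*, *Decr2*, *Pex11a*, *Cat* and *Crat*. Every probe set annotated to one of them was taken, which gave 11 probe sets for 8 of the 9 genes, out of 12422 probe sets and 8251 genes on the arrays. *Decr2*, a peroxisomal dienoyl-CoA reductase, had no probe set with values and is not described further. *Ehhadh* is read by 97316_at, *Hsd17b4* by 97515_at, *Acaa1a* by 160482_at, *Ech1* by 93754_at and *Pex11a* by 103660_at, while *Acaa1b*, *Cat* and *Crat* have 2 probe sets each. The rule used gene symbols and no measured value.

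Liver RNA of male mice aged 9 to 12 weeks was hybridised to Affymetrix U74Av2 arrays, 1 mouse per array and 3 mice in each of 8 groups. The mice were wild type or PPARα-null, the latter carrying a disrupted *Ppara* in all cells, and both strains were on a mixed SV129 and C57BL/6 background. Each strain was fed control diet or diet with WY-14,643 (WY), a peroxisome proliferator and PPARα agonist, at 500 ppm for 7 days, and on each diet 3 mice were left untreated and 3 received heat shock (HS). HS lasted 40 min at 42 °C by the study's account, with a chamber at about 43 °C in the sample labels, and livers were taken 4 h later. Mice 1 to 3, 4 to 6, 7 to 9 and 10 to 12 were the wild-type control, HS, WY and WY+HS groups, and mice 13 to 15, 16 to 18, 19 to 21 and 22 to 24 the PPARα-null groups in that order.

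Peroxisomes shorten fatty acids that mitochondria handle poorly, such as very long-chain and dicarboxylic acids. Each round oxidises, hydrates, dehydrogenates and cleaves the acyl-CoA, and its first step passes electrons to oxygen and yields hydrogen peroxide. In rodent liver peroxisome proliferators act through PPARα, a nuclear receptor that pairs with RXR on direct repeats of a hexamer, and many enzymes of this pathway are known targets.

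To show what lies upstream of a hydratase, a thiolase and the catalase gene, the 250 bases before the RefSeq transcription start (GRCm38.p6) are printed for *Ehhadh*, *Acaa1b* and *Cat*. Capitals mark the nuclear receptor half-site AGGTCA, searched on both strands. The *Ehhadh* stretch is chr16:21787835-21788084, the *Acaa1b* stretch chr9:119157094-119157343 and the *Cat* stretch chr2:103485154-103485403, all on the minus strand.
Ehhadh: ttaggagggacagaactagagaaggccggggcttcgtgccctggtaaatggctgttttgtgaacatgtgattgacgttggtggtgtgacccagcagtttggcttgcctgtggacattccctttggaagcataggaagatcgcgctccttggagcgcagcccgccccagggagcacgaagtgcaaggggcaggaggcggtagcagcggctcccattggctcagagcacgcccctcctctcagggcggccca
Acaa1b: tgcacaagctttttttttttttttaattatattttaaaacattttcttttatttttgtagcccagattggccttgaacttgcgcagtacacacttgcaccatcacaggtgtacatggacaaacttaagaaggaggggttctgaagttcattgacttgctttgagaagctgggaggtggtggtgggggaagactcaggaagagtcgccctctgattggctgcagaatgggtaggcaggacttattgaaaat
Cat: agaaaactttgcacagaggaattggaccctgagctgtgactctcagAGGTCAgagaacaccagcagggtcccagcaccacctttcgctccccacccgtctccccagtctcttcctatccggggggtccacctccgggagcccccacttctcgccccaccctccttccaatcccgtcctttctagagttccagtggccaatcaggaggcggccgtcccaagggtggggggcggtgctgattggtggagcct

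Promoter windows of 300 bases, from 250 before to 50 after the start, were read for 7 of the 9 members. The half-site AGGTCA occurred in 1 of the 7, *Cat*, where it began 204 bases before the start, and in 16.3% of all 32851 windows. The direct repeat AGGTCANAGGTCA was in none of the 7 and in 0.0396% of all windows. The core of the heat shock element, GAANNTTC, a palindrome, was in 2 of the 7, *Acaa1a* and *Ech1*, and in 7.86% of all windows. These are matches of letters in short windows, and binding was not measured.

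The deposited intensities were brought to a common distribution by quantile normalization and set to a floor of 15.7. The floor is the absolute value of the 10th percentile of the normalized values, which is negative. It is a setting and not a measured limit of detection, and levels below it were not read. Changes are differences of mean log2 intensity between groups of 3 mice, tested with limma over all probe sets and called at a Benjamini-Hochberg adjusted p below 0.05. The p-values rest on the spread between mice within groups, estimated over all 8 groups and not from the compared mice alone. *Ppara* itself read 298 to 357 in the wild-type controls and 153 to 185 in the null controls. In wild-type HS mice 4, 5 and 6 it read 306, 181 and 330, so that mouse 5 lay within the range of the null controls. The sums of 10 measured hepatocyte markers ran from 40200 to 44700 over all groups. In such whole-liver RNA fewer cells of a type and less RNA per cell cannot be told apart.

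Several libraries stood apart. *Hsph1*, a chaperone gene that HS induces, read 1231 to 2169 in 10 of the 12 heat-shocked mice, but 243.9 in wild-type HS mouse 5 and 342 in null HS mouse 18, within the 147 to 399 of the 12 mice without HS. The counts of member probe sets in the comparisons with HS groups are therefore also given without mice 5 and 18. The null HS group as a whole differed from the null controls in 3.18% of probe sets upward and 3.89% downward, whereas few differed between null WY+HS and null controls. Since 1 group was involved, HS and anything else shared by those 3 arrays cannot be told apart.

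In wild-type livers WY raised 9 of the 11 probe sets, which stand for 7 of the 8 genes measured, while 5.59% of all probe sets rose. The 2 that did not pass were both probe sets of *Cat*. The median log2 change of the 8 genes was 2.06, against 0 over all probe sets. The smallest rise was 1.12, for *Hsd17b4*, and the rises of *Ehhadh* (5.00) and *Crat* 103646_at (4.96, with control mice at the floor) were the largest and were not ranked against each other.

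Markers of cell types also moved in these livers. After WY the hepatocyte sums read 40200 to 41600 against 43700 to 44700 in the wild-type controls, with 3 of the 10 genes called lower and 0 higher. Endothelial markers (6 of 7) summed to 160 to 188 against 252 to 315, and stellate cell and fibroblast markers (7 of 7) to 1070 to 1290 against 1360 to 1660, with 1 gene called lower in each list. The Kupffer cell, lymphocyte, fat cell, red cell and skeletal muscle sums overlapped between WY and control, with 1 lymphocyte gene called lower, and *Cd3e*, *Cd3g* and *Cd8a* lay at the floor. The part of these markers in the rises was not tested.

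**Figure D1:**
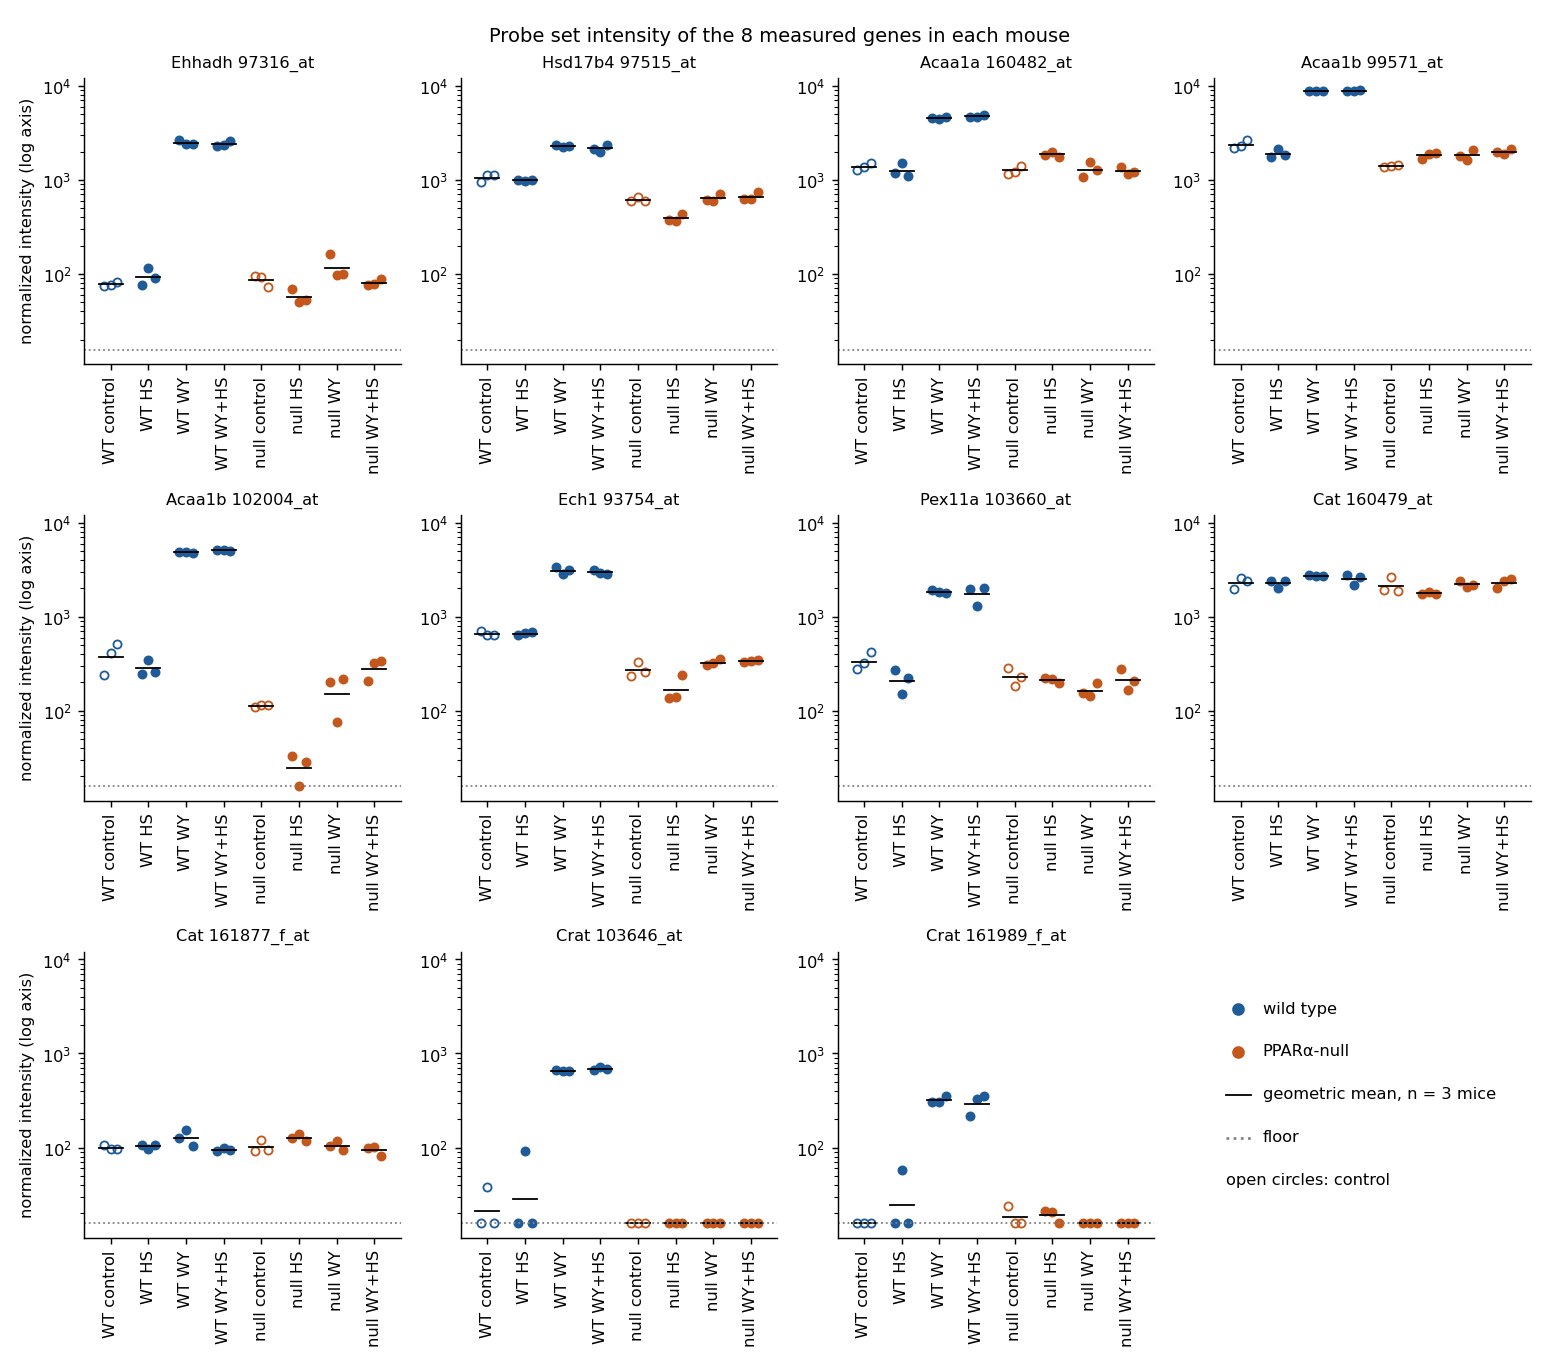
Normalized intensity (log axis) of the 11 probe sets in each mouse, by group, with wild-type mice in blue, PPARα-null mice in orange, controls as open circles, geometric means as bars (n = 3 mice) and the floor of 15.7 as a dotted line. In every panel but those of Cat the wild-type WY and WY+HS mice lie above all other mice.

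*Ehhadh*, whose product hydrates and dehydrogenates enoyl-CoA on the L side of the pathway, read 74.9, 75.3 and 81.9 in the wild-type controls and 2653, 2381 and 2410 after WY. The groups lay far apart, and the change was 32.1-fold (log2 5.00, SE 0.18, adjusted p = 1.23e-11). *Hsd17b4*, the bifunctional protein that does the same steps with D stereochemistry and also serves branched-chain acids and bile acid precursors, read 942, 1124 and 1114 in the controls and 2359, 2228 and 2312 after WY. Its rise of 2.18-fold was the smallest among the 9 probe sets (log2 1.12, SE 0.09, adjusted p = 2.76e-07).

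The thiolases that cleave the ketoacyl-CoA were read by 3 probe sets. The platform table gives 160482_at to *Acaa1a* and 99571_at and 102004_at to *Acaa1b*, but the study's own annotation gives all 3 to both genes, so which of these near-identical genes each reads is uncertain. The *Acaa1a* probe set read 1273, 1377 and 1505 in the controls and 4533, 4440 and 4694 after WY (3.30-fold, log2 1.72, SE 0.12, adjusted p = 4.98e-08). *Acaa1b* 99571_at rose from 2190, 2281 and 2653 to 8767 in all 3 WY mice. That equality came from the normalization, since the probe set ranked 3 among all probe sets on each of these arrays and a shared rank takes a shared value. Shared values show no spread, and the spread was estimated over all 8 groups. The SE and p of 99571_at can therefore be too small in every comparison.

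The deposited intensities of 99571_at in the 3 WY mice were 10242, 7692 and 9569. With the arrays scaled to a common median instead, its WY values were 6043, 6831 and 6068 and its rise was 2.53-fold (log2 1.34, SE 0.17, adjusted p = 6.85e-05), against 3.71-fold after quantile normalization (log2 1.89, SE 0.09). *Acaa1b* 102004_at read 240.5, 407 and 518 in the controls and 4916, 4916 and 4814 after WY (13.2-fold, log2 3.72, SE 0.36, adjusted p = 2.07e-06). At a common median its rise was 10.7-fold.

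*Ech1*, a dienoyl-CoA isomerase that prepares unsaturated acids for the pathway, read 703, 637 and 642 in the controls and 3350, 2838 and 3126 after WY. The rise was 4.69-fold (log2 2.23, SE 0.16, adjusted p = 8.27e-08). *Pex11a*, a membrane protein of peroxisome division, read 275, 319.5 and 417 in the controls and 1915, 1824 and 1772 after WY (5.53-fold, log2 2.47, SE 0.24, adjusted p = 1.96e-06). In both genes the lowest WY mouse lay above the highest control mouse.

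*Crat*, which moves acetyl groups from CoA to carnitine, lay at or near the floor in the wild-type controls. Its probe set 103646_at lay at the floor in control mice 1 and 3 and read 37.9 in mouse 2, and after WY it read 668, 652 and 647. With the floor values as they stand the change was log2 4.96 (SE 0.47, adjusted p = 1.49e-06). The second probe set, 161989_f_at, was at the floor in all 3 controls and read 304, 306 and 353 after WY. Against that floor the rise was 20.35-fold (log2 4.35, SE 0.35, adjusted p = 2.6e-07), a size that depends on the floor chosen. Values held at the floor show no spread, so the SE and p of both *Crat* probe sets can be too small.

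*Cat*, the catalase that breaks down hydrogen peroxide, did not pass. Its probe set 160479_at read 1991, 2558 and 2410 in the controls and 2751, 2718 and 2686 after WY, so that all WY mice lay above all controls by a small margin (log2 0.24, 95% interval -0.03 to 0.51, adjusted p = 0.337). At a common median the sign turned (log2 -0.11, SE 0.14, adjusted p = 0.942). The dimmer 161877_f_at read 107, 96.0 and 96.3 in the controls and 126, 154 and 105 after WY, with overlapping groups (log2 0.35, adjusted p = 0.123).

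In the wild-type WY+HS group 9 of the 11 probe sets rose against control, while 5.23% of all probe sets did. *Ehhadh* read 2298, 2359 and 2587 (log2 change against control 4.96, SE 0.18, adjusted p = 2.78e-11), *Ech1* 3113, 2937 and 2876 (log2 2.17, SE 0.16) and *Crat* 103646_at 671, 712 and 687. Mouse 11 was low for *Pex11a*, at 1304 beside 1973 and 2021, and still above every control mouse.

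Between WY+HS and WY in wild-type livers none of the 11 probe sets passed in limma, with 1 at an unadjusted p below 0.05, and 0.427% of all probe sets passed. The methods' test, an analysis of variance followed by Scheffé's comparisons, also called 0. The intervals differed in width: log2 -0.04 for *Ehhadh* (95% interval -0.43 to 0.35), -0.09 for *Hsd17b4* (-0.28 to 0.10) and -0.08 for *Pex11a* (-0.59 to 0.42). They were wider for *Acaa1b* 102004_at (log2 0.06, -0.71 to 0.82) and *Crat* 103646_at (0.07, -0.92 to 1.06), so larger differences there are not excluded. The 1 at an unadjusted p below 0.05 was *Cat* 161877_f_at (log2 -0.42, -0.70 to -0.14, limma adjusted p = 0.248). The WY by HS interaction in wild-type livers passed for 0 of the 11, 2 at an unadjusted p below 0.05, and for 0.105% of all probe sets. It also passed for 0 without mice 5 and 18.

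HS alone in wild-type livers changed none of the 11 probe sets in limma, with 2 at an unadjusted p below 0.05, while 0.0403% of all probe sets passed. Without mouse 5 the count was also 0. Those 2 were *Pex11a*, at 268, 150.3 and 221 against 275 to 417 in the controls (log2 -0.68, 95% interval -1.18 to -0.18, adjusted p = 0.653), and *Acaa1b* 99571_at (log2 -0.31, interval -0.51 to -0.12, adjusted p = 0.529). Both groups separated from the controls, but neither difference passed the adjusted test. The other *Acaa1b* probe set, 102004_at, changed by log2 -0.39 with a wider interval (-1.15 to 0.38) and overlapping groups. *Ech1* was level at log2 0.00 (interval -0.34 to 0.35).

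Mouse 5 also stood apart among the members. *Crat* 103646_at read 91.6 there and lay at the floor in HS mice 4 and 6, and 161989_f_at read 57.8 in mouse 5 alone. *Ehhadh* was highest in this mouse, at 116 beside 75.8 and 90.2.

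In PPARα-null livers WY changed none of the 11 probe sets in limma, with 2 at an unadjusted p below 0.05, while 0.00805% of all probe sets passed. *Ehhadh* read 94.7, 93.4 and 73.1 in the null controls and 163, 96.3 and 100.4 after WY (log2 0.43, 95% interval 0.04 to 0.81, adjusted p = 1). The upper end of that interval lay well under the 5.00 measured in wild-type livers. *Acaa1b* 99571_at read 1377, 1407 and 1457 in the controls and 1793, 1614 and 2103 after WY, with no overlap (log2 0.37, interval 0.17 to 0.56, adjusted p = 0.481). *Crat* 103646_at was at the floor in all 12 null mice.

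The difference between the strains in the WY response was tested itself. The WY by genotype interaction, the log2 change in null livers minus that in wild-type livers, was below 0 and passed for 9 of the 11 probe sets, while 2.94% of all probe sets passed in that direction. It was -4.57 for *Ehhadh* (SE 0.26, adjusted p = 1.24e-08), -4.96 for *Crat* 103646_at (SE 0.66), -2.95 for *Pex11a* (SE 0.34) and -1.07 for *Hsd17b4* (SE 0.13, adjusted p = 6.32e-05). *Cat* 160479_at did not pass (-0.17, 95% interval -0.55 to 0.21, adjusted p = 0.914).

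Set against wild-type WY mice, the null WY mice were lower for the same 9 of 11 probe sets, with 6.65% of all probe sets lower. The difference was 3.60-fold for *Hsd17b4* and 21.3-fold for *Ehhadh*. For *Crat* 103646_at it was 41.65-fold with the null mice set to the floor, a size that depends on the floor chosen. After WY+HS 9 of 11 were again lower in null livers, with 5.51% of all probe sets. Null WY+HS livers compared with null controls gave 0 of 11 in limma (2 at an unadjusted p below 0.05), with 0.0161% of all probe sets called, and the methods' test called 1, *Acaa1b* 99571_at, which read 1991, 1899 and 2128 against 1377 to 1457 (log2 0.50, limma adjusted p = 0.0705).

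**Figure D2:**
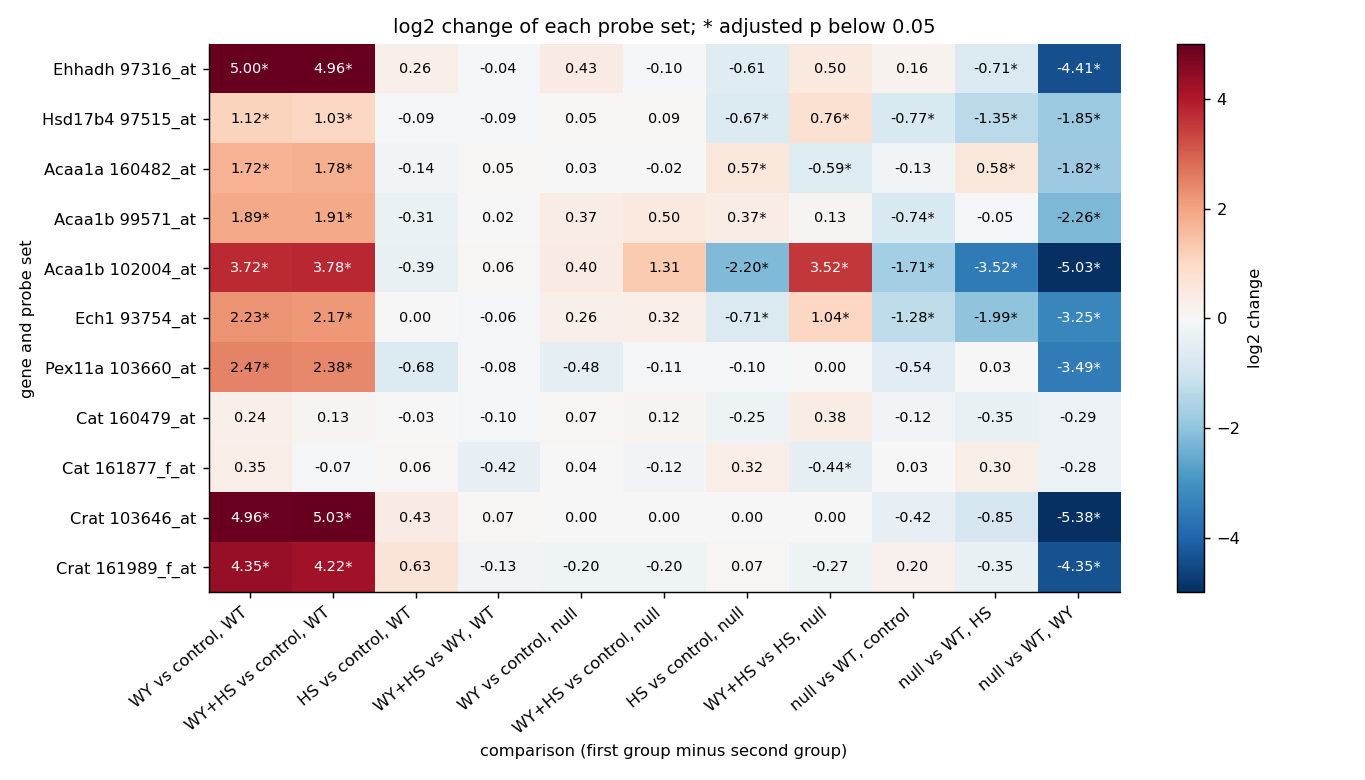
Mean log2 change of each probe set (rows) in 11 comparisons (columns), first group minus second, with an asterisk where the limma adjusted p was below 0.05 and n = 3 mice per group. The columns of wild-type WY and WY+HS against control and of null against wild-type WY carry 9 asterisks each. The wild-type WY+HS against WY column carries none. Among the columns with an HS-alone group, asterisks lie only in those that involve null HS livers.

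Untreated null livers held less of some members than untreated wild-type livers. Of the 11 probe sets 4 were lower, against 0.523% of all probe sets. *Ech1* read 235.5, 326 and 261 in the null controls against 703, 637 and 642 (2.43-fold lower, log2 -1.28, SE 0.16, adjusted p = 0.000533). *Hsd17b4* read 602, 660.4 and 593 against 942 to 1124 (1.71-fold lower, log2 -0.77, SE 0.09, adjusted p = 0.000289). *Acaa1b* was lower by both probe sets, 1.67-fold for 99571_at (adjusted p = 0.00042) and 3.27-fold for 102004_at (adjusted p = 0.0316). At a common median the limma adjusted p of 99571_at was 0.027.

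For *Ehhadh* and *Acaa1a* no difference between the untreated strains was detected, and the log2 differences were 0.16 (95% interval -0.23 to 0.55) and -0.13 (-0.39 to 0.12). *Pex11a* overlapped between them, at 183 to 282 in null and 275 to 417 in wild-type mice (log2 -0.54, adjusted p = 0.432). When the 6 arrays were fitted alone none of the 4 calls passed (0 of 11), and without scaling 1 of them did. The call of 102004_at was also lost at a common median (adjusted p = 0.0502), with the floor at 3.04 (0.263), on the asinh scale (0.357), and without any one of mice 2, 3, 13, 14 and 15, but not without mouse 1.

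Null HS livers differed from null controls in both directions: 2 probe sets were higher and 3 lower, against 3.18% and 3.89% of all probe sets. *Hsd17b4* fell from 602, 660.4 and 593 to 377, 363 and 431 (log2 -0.67, SE 0.09, adjusted p = 0.000294). *Ech1* fell from 235.5, 326 and 261 to 135, 139 and 242.5, with mouse 18 inside the control range (log2 -0.71, SE 0.16, adjusted p = 0.0132). *Acaa1b* 102004_at fell from 109.9, 114 and 116 to 32.8 and 28.7 in mice 16 and 18 and to the floor in mouse 17 (log2 -2.20, SE 0.36, adjusted p = 0.00126). Mouse 18, with *Hsph1* in the range of mice without HS, also lay below all null controls for *Hsd17b4* and 102004_at, at 431 and 28.7. What sets these arrays apart was not tested.

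The other thiolase probe sets moved the opposite way in the same livers. *Acaa1a* 160482_at rose from 1165, 1228 and 1401 to 1858, 1991 and 1772 (log2 0.57, SE 0.12, adjusted p = 0.00826), and *Acaa1b* 99571_at from 1377, 1407 and 1457 to 1676, 1889 and 1943 (log2 0.37, SE 0.09, adjusted p = 0.0202). Both probe sets given to *Acaa1b* therefore disagreed in direction. The annotation describes the clone behind 102004_at as a 5′ end sequence and those behind 99571_at and 160482_at as 3′ end sequences, and no RNA quality measure could be read, since the array's control probe sets hold no values. Its part in these results was not tested.

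The rises depended on the scaling. At a common median *Acaa1a* (log2 0.41, adjusted p = 0.267) and 99571_at (log2 0.17, adjusted p = 0.873) did not pass, while the 3 falls did and *Ehhadh* (log2 -0.66, adjusted p = 0.0489) and *Cat* 160479_at (log2 -0.49, adjusted p = 0.0425) joined them, so that 0 rose and 5 fell. Without scaling, and with these 6 arrays fitted alone, 0 of 11 passed. The share of all probe sets passing in those refits is not given here, so these counts are not read as particular to the members. *Ech1* was no longer called without mouse 14 (adjusted p = 0.0811), 16 (0.0819) or 17 (0.0824). The rise of 99571_at was also lost with array weights (adjusted p = 0.0568), on the asinh scale (0.0556), by the methods' test (0.0778) and without mouse 13 (0.0702), 14 (0.0707), 17 (0.0854) or 18 (0.0564).

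Without mice 5 and 18 the count for HS in null livers was again 5, with log2 -0.99 for *Ech1* and -0.74 for *Hsd17b4*. Markers of other cells moved in the same livers. The summed lymphocyte markers (7 of 8 measured) read 1290 to 1530 after HS and 734 to 1020 in the null controls, although *Cd3e*, *Cd3g* and *Cd8a* lay at the floor in both. Stellate cell and fibroblast markers (7 of 7) summed to 1840 to 2360 against 1330 to 1530, endothelial markers (6 of 7) to 298 to 324 against 192 to 231, and skeletal muscle markers (8 of 8) to 209 to 1100 against 207 to 285, high in mice 16 and 17. Red cell markers (2 of 4) summed to 2220 to 2920 against 1150 to 2160. Kupffer cell markers (572 to 689 against 352 to 664) and fat cell markers (200 to 237 against 184 to 250) overlapped, and bile duct markers lay at or near the floor. The hepatocyte sums were 41400 to 43200 against 42900 to 44500. The part of these cells in the changes of the members was not tested.

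**Figure D3:**
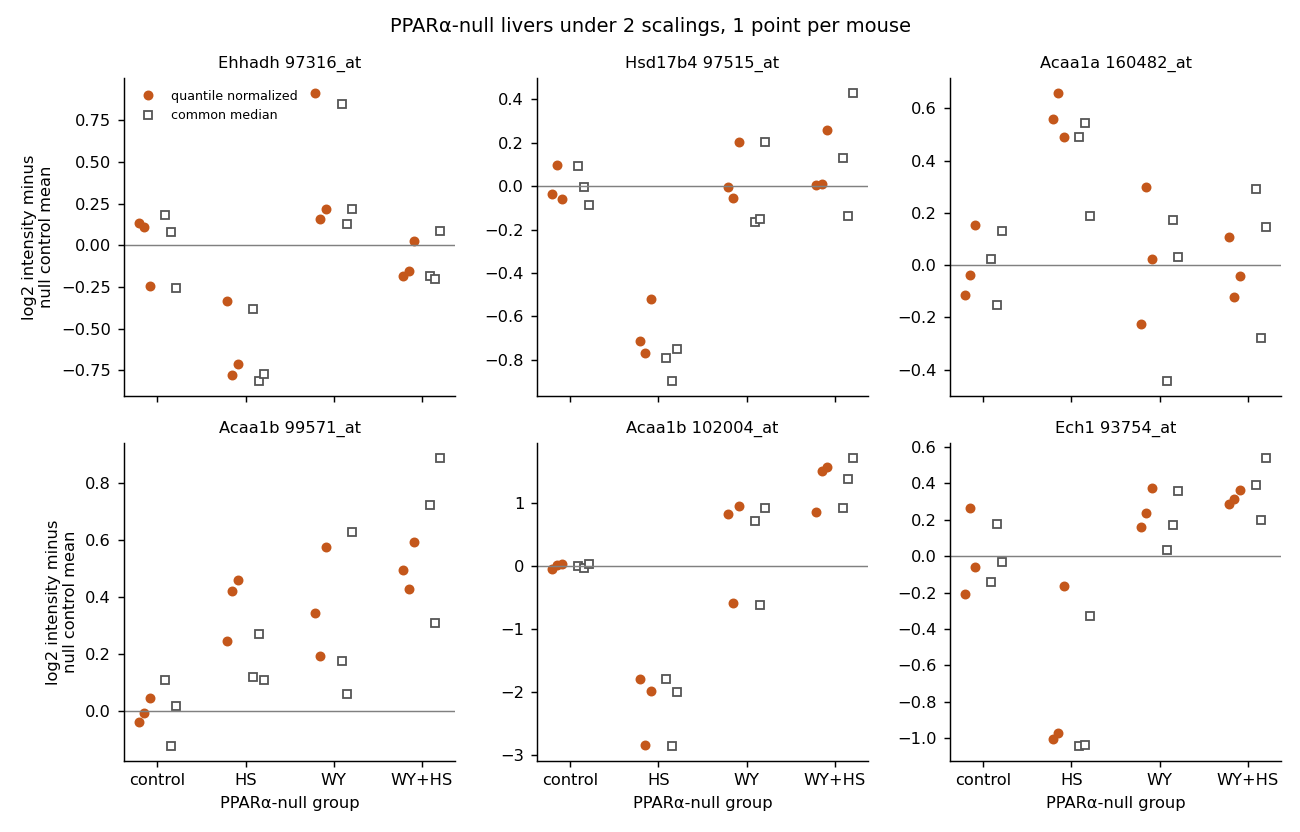
Log2 intensity of 6 probe sets in each PPARα-null mouse minus the mean of the null controls, with quantile normalized values as filled circles and values at a common median as open squares; each panel has its own scale. The HS mice are below the controls for Hsd17b4 and Acaa1b 102004_at under both scalings, and for Acaa1a and Acaa1b 99571_at the HS mice lie nearer the controls at a common median.

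In null livers fed WY before HS, the probe sets that had fallen after HS alone read at or above the null controls. Between null WY+HS and null HS livers 3 probe sets were higher and 2 lower, against 6.05% and 5.14% of all probe sets. *Hsd17b4* read 619.5, 621 and 739 (log2 0.76 above HS alone, SE 0.09, adjusted p = 6.84e-05), *Ech1* 331, 339 and 349.9 (log2 1.04, SE 0.16, adjusted p = 0.000582) and *Acaa1b* 102004_at 205.5, 322 and 336 (log2 3.52, SE 0.36, adjusted p = 1.44e-05). *Acaa1a* was lower (log2 -0.59, adjusted p = 0.00438), as was *Cat* 161877_f_at (log2 -0.44, adjusted p = 0.0418), whose call was lost without mouse 16, 17, 22 or 24. Scaled to a common median, 4 were higher and 0 lower: *Acaa1a* (adjusted p = 0.296) and *Cat* 161877_f_at (0.0702) did not pass, and *Cat* 160479_at was higher (log2 0.70, adjusted p = 0.00316). Without mice 5 and 18 the count was 5. These values share the null HS mice with the comparison above. With these 6 arrays fitted alone, and without scaling, 1 of the 5 calls passed.

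The WY by HS interaction in null livers passed for *Acaa1b* 102004_at (3.12, SE 0.51, adjusted p = 0.00467) and *Hsd17b4* (0.71, SE 0.13, adjusted p = 0.0101), both upward, as did 1.16% of all probe sets. Both calls were lost without scaling (adjusted p = 0.143 and 0.841) and with the null arrays fitted alone (0.0978 and 0.0988), and that of 102004_at on the asinh scale (0.0691). Without mice 5 and 18 the interaction passed for 4 of the 11, the added calls being *Ech1* upward (1.05, adjusted p = 0.000581) and *Acaa1a* downward (-0.66, adjusted p = 0.0276). With the arrays at a common median 3 passed, *Ech1* being added (adjusted p = 0.0218).

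The HS response differed between strains for 3 probe sets. It was higher in null livers for *Acaa1a* (0.71, SE 0.17, adjusted p = 0.047) and *Acaa1b* 99571_at (0.69, SE 0.13, adjusted p = 0.0128), where 0.676% of all probe sets were higher, and lower for *Hsd17b4* (-0.57, SE 0.13, adjusted p = 0.0335), where 0.942% were lower. At a common median none of the 3 passed (0 of 11). Leaving out 1 mouse gave 1 to 4, with 1 left without mouse 1, 4, 6, 13, 14, 16 or 17, and leaving out mice 5 and 18 together gave 4.

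After HS null livers read lower than wild-type livers for 4 probe sets and higher for 1, with 7.69% of all probe sets lower and 7.12% higher. *Ech1* was 3.99-fold lower (log2 -1.99), *Hsd17b4* 2.54-fold lower (log2 -1.35) and *Acaa1b* 102004_at lower by a log2 difference of -3.52, a size limited by null mouse 17 at the floor. *Ehhadh* was 1.63-fold lower (adjusted p = 0.014), a call that was lost without mouse 5 (adjusted p = 0.0764) or mouse 17 (0.0698), and without mice 5 and 18 together (0.155). *Acaa1a* was 1.49-fold higher (log2 0.58, adjusted p = 0.00333), and without scaling its sign turned (log2 -0.09). At a common median *Acaa1a* did not pass (log2 0.40, adjusted p = 0.196) and *Cat* 160479_at did (log2 -0.54, adjusted p = 0.0136), so that 5 were lower and 0 higher. Without mice 5 and 18 the count was 4, and with the 6 HS arrays fitted alone it was 3. The shares of all probe sets under these refits, and under those in the paragraphs above, are not given. Counts from refits are therefore not read as particular to the members.

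Over the 8 groups the order of mean levels was alike for most members. Wild-type WY and WY+HS held the first 2 places for every probe set except *Cat* 161877_f_at, and for all of these except *Cat* 160479_at the lower of the 2 groups did not overlap with the third. *Ehhadh*, *Hsd17b4*, *Acaa1b* 102004_at, *Ech1* and *Cat* 160479_at were lowest in null HS livers, by a gap without overlap for all but *Ech1*. *Acaa1b* 99571_at was lowest in null controls, and *Pex11a* in null WY livers, where it overlapped with wild-type HS.

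Across the 24 arrays each gene's log2 level was set against the mean of the others, by its brightest probe set. Pearson's r was 0.936 to 0.972 for *Ehhadh*, *Acaa1b*, *Hsd17b4*, *Ech1*, *Pex11a* and *Crat*, 0.877 for *Acaa1a* and 0.632 for *Cat*. All points share the arrays and the large step between WY-fed wild-type mice and the rest, so these describe that step above all.

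The non-member gene whose pattern was most like the mean of the members was *Abcd3* (r = 0.990 over 24 arrays), a half-transporter of the peroxisomal membrane that imports acyl-CoA. It rose with WY in wild-type livers from 664 ± 55.4 to 2270 ± 19.4 (SD, n = 3 mice) and read 475 ± 31.5 and 514 ± 18.1 in null control and null WY livers. *Hadhb* (r = 0.981), the thiolase subunit of the mitochondrial trifunctional protein, read 773 ± 47.8 and 2390 ± 72.1 in the wild-type and 506 ± 27.4 and 518 ± 39.1 in the null groups. *Hsd17b11* (r = 0.979), *Cox6b2* (0.976), *Retsat* (0.976), *Psma5* (0.974), *Prxl2a* (0.973) and *Acaa2* (0.972) followed. Neighbours in this order differ by little, and no function is inferred from it.

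Other genes listed for the peroxisome and for fatty acid oxidation give the setting of the members. They were listed by symbol, and where their proteins lie in the cell was not measured. With WY in wild-type livers 5.59% of all probe sets rose and 5.19% fell. Of 15 measured genes listed as peroxisomal lipid enzymes and transporters (27 listed) WY raised 8 and lowered 2 in wild-type livers, with a median log2 change of 0.42. *Amacr*, a racemase for branched acyl-CoA, rose by 2.04, *Abcd3* by 1.78 and *Acot8*, a peroxisomal thioesterase, by 1.68, while *Abcd4* changed by -1.32. The other fall, named after its value was seen, was in *Baat* (-0.59), which joins bile acids to amino acids.

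Of 11 genes listed as other peroxisomal oxidases and metabolic enzymes 7 rose and 3 fell, with a median of 0.86. *Hao2*, a hydroxyacid oxidase, rose by 3.42, *Dhrs4*, a carbonyl reductase, by 1.82, *Xdh* by 1.63 and *Ephx2*, the soluble epoxide hydrolase, by 1.19. The 3 falls, named after their values were seen, were in *Pipox* (-0.98), *Agxt* (-0.64) and *Uox* (-0.55), enzymes of amino acid and urate breakdown. Of 10 peroxisome assembly genes 3 rose, *Pex19* by 1.03, *Pex13* by 0.77 and *Pex7* by 0.51, and *Pxmp2* changed by -0.52, with a median of 0.16.

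Of 16 mitochondrial β-oxidation genes 13 rose and 0 fell, with a median log2 change of 0.78. *Decr1*, the mitochondrial dienoyl-CoA reductase, rose by 2.27, *Acadl* by 2.04, *Eci1* by 1.98 and *Hadhb* by 1.63. In null livers WY changed 0 genes in each of these 4 lists, with medians from -0.02 to 0.06 against 0.06 for the members. Of all probe sets 0.00805% were called there.

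**Figure D4:**
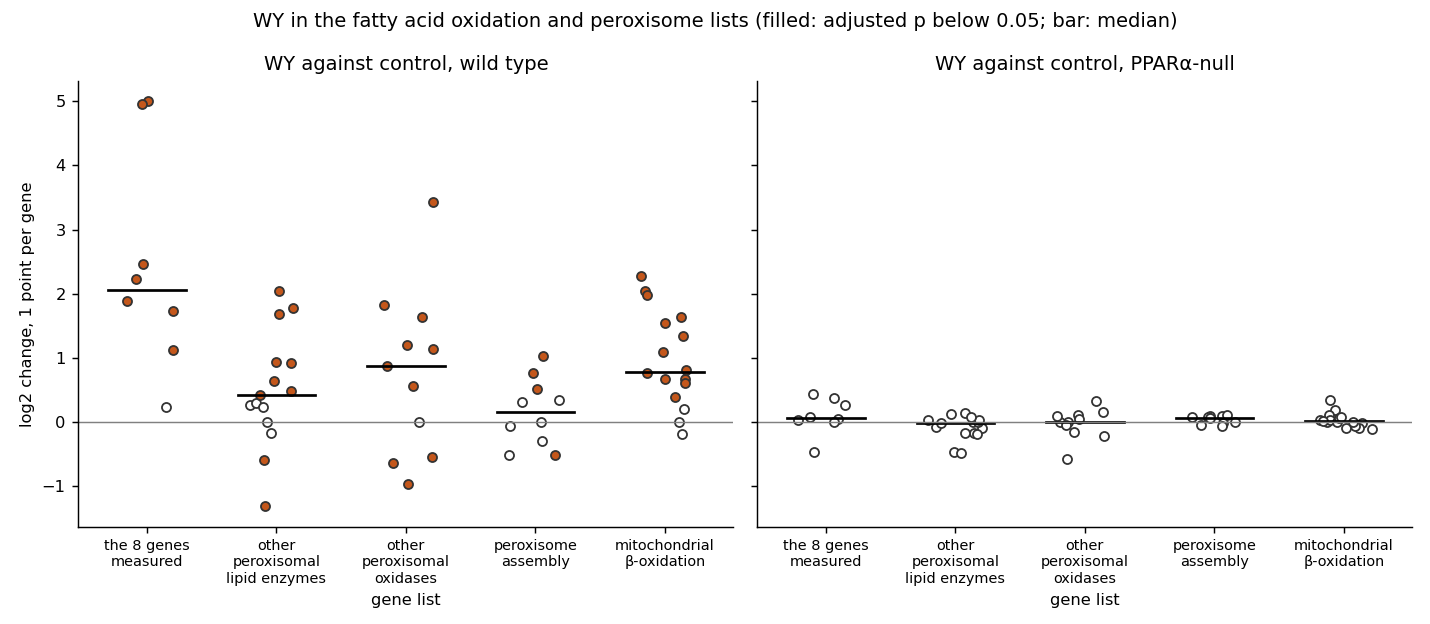
Log2 change with WY of each gene (points, by its brightest probe set) in the members and 4 other gene lists, in wild-type and PPARα-null livers, with filled points past the adjusted p of 0.05 and bars at list medians. In wild-type livers the median is 2.06 for the members and 0.78 for mitochondrial β-oxidation, and in null livers no point is filled.

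In untreated null livers 8 of the 16 mitochondrial genes were lower than in wild-type livers and 0 higher, with a median of -0.61, beside 3 of 8 member genes and a member median of -0.48. Of all probe sets 0.523% were lower. *Eci1* differed by -1.80, *Cpt2*, which re-forms acyl-CoA inside mitochondria, by -1.46, *Slc25a20*, the carnitine carrier, by -1.46 and *Etfdh* by -1.25. Among the peroxisomal lipid genes *Eci2* (-1.59), *Acot8* (-1.01) and *Abcd3* (-0.48) were lower.

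With HS in null livers 3 mitochondrial genes fell, *Etfdh* by log2 -0.75, *Hadhb* by -0.46 and *Etfb* by -0.25, and none rose, while 3.89% of all probe sets fell and 3.18% rose. Of the peroxisomal lists, *Gnpat* (-0.57), of ether lipid synthesis, *Slc25a17* (-0.35), *Dhrs4* (-1.03), *Pex13* (-1.01) and *Pex7* (-0.63) fell and 0 rose. The members and these lists were read from the same null HS arrays, whose limits are given above.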

How the data were processed

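Gene expression was profiled in the livers of 24 mice with Affymetrix U74Av2 arrays. The deposited values are probe set intensities on a linear scale, made by the authors from cel files of the GeneChip Operating Software and Rosetta Resolver, with the summary method and scaling not given in the sources used here. Of these values 24.1% lie at or below 0, and array medians run from 15.2 to 40.5 without a common scale. Among 12488 probe sets, 66 have no value. Exactly 1 symbol was given to 10833 of the 12422 tested, several to 396 and none to 1193, and symbols were updated through RefSeq gene IDs (GRCm38.p6). A gene with several probe sets is stood for by the brightest in list counts.

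Intensities were quantile normalized, set to a floor of 15.7 (42.9% of values) and taken to log2. One mean per group was fitted with limma 3.58.1 in R 4.3.3 over all 8 groups (16 residual and 0.39 prior degrees of freedom), with Benjamini-Hochberg adjustment over 12422 probe sets per comparison. The procedure was tested on simulated data. Precision is limited by 3 mice per group. Where a group lay at the floor, the size of a fold depends on that setting.

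The members and gene lists were chosen with earlier results of these data known. Named were every member by each probe set, up to 4 genes past the threshold per list and comparison, *Ppara*, and the 8 genes most like the member mean. *Hsph1* and the markers serve as checks of the libraries. Promoter windows came from RefSeq. Some genes of the pathway are not reported here. Alternatives were a common median, no scaling, other floors (33.9 and 3.04), an asinh scale, array weights, moderation with limma's trend and robust options, removal of probe sets under the 30th percentile, the methods' test, separate fits of the arrays of each comparison, and single mice left out. Leaving out mice 5 and 18 together was chosen after seeing the data.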

Additional observations from a re-analysis of the deposited data

Results flagged for a closer look

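The WY response differed between the strains, by a test of the difference itself (limma interaction, null minus wild type, log2), for 9 probe sets: -4.57 for *Ehhadh*, -1.07 for *Hsd17b4*, -1.69 for *Acaa1a*, -1.52 and -3.32 for *Acaa1b* 99571_at and 102004_at, -1.97 for *Ech1*, -2.95 for *Pex11a*, and -4.96 and -4.55 for *Crat* 103646_at and 161989_f_at. Adjusted p ran from 1.24e-08 for *Ehhadh* to 0.000616 for 102004_at. In the same direction 2.94% of all probe sets passed.

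The HS response differed between the strains by the same test for *Acaa1a* (0.71), *Acaa1b* 99571_at (0.69) and *Hsd17b4* (-0.57), with adjusted p of 0.047, 0.0128 and 0.0335. None of these calls passed at a common median (limma adjusted p = 0.311, 0.288 and 0.141), without scaling, or with the arrays compared fitted alone. The effect of HS in null livers differed between the diets for *Acaa1b* 102004_at (3.12, adjusted p = 0.00467) and *Hsd17b4* (0.71, adjusted p = 0.0101). Both calls were lost without scaling (limma adjusted p = 0.143 and 0.841) and with the null arrays fitted alone (0.0978 and 0.0988).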

How the results depend on the processing

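No paired analysis was possible because no replicate number is shared between groups and every array is of another mouse. Of 78 called changes of member probe sets, refitted 1361 times under the alternatives that apply to each, 1254 refits kept the direction and the call, 106 kept the direction only and 1 turned: *Acaa1a* in null against wild-type HS livers, log2 -0.086 without scaling (adjusted p = 1). *Ehhadh* after HS in null livers, uncalled at adjusted p = 0.0553, passed at a common median (0.0489), with the filter (0.0429) and without mouse 15 (0.038) or 16 (0.0473).

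Counts of the 11 probe sets moved as follows, and the cause was not tested where none is given. The shares of all probe sets under these settings are not given, so these counts are not read as particular to the members. Without scaling, 1 passed for WY+HS against WY in wild-type livers, 0 for HS in null livers, 1 for WY+HS against HS in null livers, 1 for untreated null against wild-type and 0 for the HS by genotype interaction. With the arrays of a comparison fitted alone, which leaves fewer residual degrees of freedom, 0 passed for HS in null livers, 1 for WY+HS against HS there, 0 for untreated null against wild-type and 0 for the HS by genotype interaction. That interaction also gave 0 at a common median, and 1 each on the asinh scale, with trend and robust moderation and with the filter. The methods' test gave 1 for WY+HS against control in null livers. Leaving out 1 mouse gave 3 to 6 for HS in null livers (3 without mouse 14 or 17), 1 to 4 for the HS by genotype interaction, 3 to 4 for untreated null against wild-type, 4 to 5 for WY+HS against HS in null livers, 9 to 10 for WY in wild-type livers, 9 for WY+HS there and for the WY by genotype interaction, and 0 for the other counts. Without scaling the median of all probe sets itself moved by over 0.1 on the log2 scale, by 0.12 for WY, 0.19 for HS, -0.37 for WY+HS against WY, -0.21 for WY+HS against HS and -0.66 for the WY by HS interaction, all in wild-type livers. Signal over background limits *Crat*: in null livers 103646_at lay at the floor in all 12 mice, and 161989_f_at read above it in mice 13, 16 and 17, at 20.55 to 23.8.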
